A study of Mus musculus with 8 samples.

Results

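Day 4 of a reprogramming course was set against days 2, 6 and 8, to ask which transcripts stood apart on that single day and did not simply lie between the earlier and the later cells. The day-4 side held 2 of the 8 libraries and the other side 6, with each of the 3 other days given the same weight whatever its values. Of 32108 genes listed, 15358 reached 1 CPM (counts per 1000000 counted reads) in at least 2 of the 8 libraries and were tested. All 8 libraries came from 4F2A mouse embryonic fibroblasts (MEFs), which carry a doxycycline-inducible cassette of Oct4, Sox2, Klf4 and c-Myc. The labels give homozygous 4F2A embryos of 13.5 days post coitum as their origin. All cultures received doxycycline at 2 μg/mL from day 0 onward, LIF at 1000 U/mL and KnockOut serum replacement in place of serum, so the groups, called D2, D4, D6 and D8, differ in the days under the drug and in nothing else that the labels name. Each day had 2 libraries titled as replicates, without a word on whether they were separate cultures, so p-values measure the spread between these libraries, which may be technical. A day cannot be told apart from the harvest and handling of its cultures. No library without doxycycline was analysed here, and the counting gives 1 value per gene, so cassette and endogenous transcripts of the 4 factors are summed.

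Forced expression of these 4 factors is known to move fibroblasts away from their mesenchymal programme within days, before late pluripotency genes such as Nanog are switched on. Immediate-early genes such as Fos and Egr1 are transcribed within minutes of a growth factor or stress signal through the MAP kinase pathway, and their short-lived transcripts fall again unless the signal continues. For such genes a state of D4 and the handling of the D4 cultures cannot be told apart here. The sections that follow take first the immediate-early genes and the inhibitors of the MAP kinase pathway, then the cell cycle, the matrix and secreted factors, and last the genes that were lowest on D4. Because these are bulk samples, fewer cells of a type and less RNA per cell cannot be told apart.

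The libraries held between 19409936 and 20161021 counted reads, so depth differed little. Mitochondrial transcripts took between 4.53% and 6.78% of reads. Fibroblast genes were abundant throughout, with Col1a1 between 10848 and 18029 CPM and Thy1 between 332 and 536 CPM. Nanog did not reach the test, at 0.569 CPM or less in every library. Of 25 listed pluripotency genes, 10 were tested. The list's summed level was 59.0 and 55.1 CPM on D2, 87.2 and 90.4 on D4, 136 and 143 on D6, and 164 and 162 on D8. The summed level of 20 macrophage and blood cell markers was 158 and 164 CPM in the D4 libraries and between 119 and 186 CPM in the others. Of the 20, 16 were tested, and Cd163, at 0 in both D4 libraries, was not among them. Ptprc, the pan-leukocyte gene, was at 2.15 and 2.61 CPM on D4, so most of the sum came from other members. Xist, transcribed from the inactive X chromosome of female cells, lay between 702 and 1238 CPM in every library, whereas the Y-linked Ddx3y did not exceed 0.333 CPM, against the male embryos of the label.

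In a principal component analysis of log2(CPM + 1), the first component held 81.9% of the variance and ordered the days, with D4 between D2 and D6. The second held 12.3% and had D4 at one end: the D4 libraries scored 26.1 and 30.1, whereas the D2 libraries scored -9.16 and -9.31, the D6 libraries -2.88 and -2.999, and the D8 libraries -17.9 and -14.0. Only the D4 libraries had positive scores. The D4 libraries were also nearer to D6 (distances of 44.8 to 48.2 over all tested genes) than to D2 (82.6 to 84.6), and replicates of a day lay 16.4 to 19.65 apart.

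**Figure D1:**
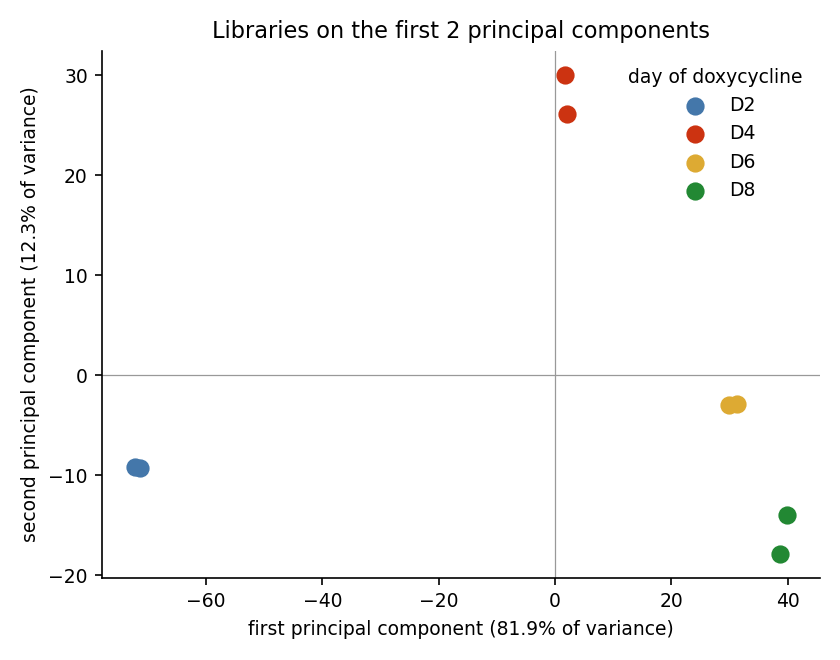
Scores of the 8 libraries on the first (x axis) and second (y axis) principal components of log2(CPM + 1) over the 15358 tested genes, 1 point per library, coloured by day. The first axis runs from D2 to D8, and on the second the D4 libraries (26.1 and 30.1) sit above all 6 others (-17.9 to -2.88).

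Against the mean of the other 3 days, 3102 genes were higher on D4 (20.2% of those tested) and 3552 were lower (23.1%; limma, adjusted p under 0.05). Most of these differences were small: 68 genes (0.443%) were at least 2-fold higher and 91 (0.593%) at least 2-fold lower. Day by day, 40.9% of the tested genes were higher and 21.7% lower on D4 than on D2, 12.6% and 25.2% than on D6, and 18.3% and 30.7% than on D8. A mean over 3 days does not by itself mark a gene of D4. Among the genes called higher, 956 (30.8%) differed from D2 alone, and among those called lower, 950 (26.7%) differed from D6 and D8 but not from D2. A gene was therefore called a D4 peak where it was higher than each of the other days in its own test and both D4 libraries exceeded all 6 others, and a D4 trough in the mirror case. There were 745 peaks (4.85%) and 503 troughs (3.28%). Together with the 20.2% higher and 23.1% lower, these shares are the background for each list below. The day nearest in level was D6 for 57.6% of the peaks, D2 for 26.7% and D8 for 15.7%. The comparisons with the 3 days share the D4 libraries, so they are not independent of each other.

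The scale of the values bears on the troughs in particular. With the libraries rescaled by median-of-ratios factors, 879 peaks and 399 troughs were called, of which 621 and 273 were also among those above. Leaving out the second D4 library gave 2082 genes lower and 271 troughs.

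The clearest peaks were immediate-early genes. Fos, which encodes a subunit of the transcription factor AP-1, led them. Egr1, a zinc finger transcription factor, Zfp36, a protein that binds AU-rich elements and speeds the decay of short-lived mRNAs, Fosb, another Fos protein, and Ier2 followed. With Tmem26 and Dusp1 these made up the 7 peaks at least 2-fold above every other day. The sequences just before the transcription start of Fos, Zfp36 and Fosb are shown because these are the peaks with the largest distance from the nearest other day among the immediate-early genes for which a promoter was at hand. Each is the 250 bases before the RefSeq start on GRCm38.p6, 5′ to 3′ on the gene's own strand. Capitals mark the letters TGACG, the first letters of the cAMP response element TGACGTCA, and the CArG box bound by serum response factor, searched on both strands.
Fos, chr12:85473640-85473889, plus strand: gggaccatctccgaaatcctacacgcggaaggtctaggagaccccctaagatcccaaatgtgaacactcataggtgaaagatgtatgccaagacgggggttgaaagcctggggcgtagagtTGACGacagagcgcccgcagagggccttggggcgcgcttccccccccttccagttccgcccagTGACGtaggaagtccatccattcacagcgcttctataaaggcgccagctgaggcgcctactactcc
Zfp36, chr7:28379229-28379478, minus strand: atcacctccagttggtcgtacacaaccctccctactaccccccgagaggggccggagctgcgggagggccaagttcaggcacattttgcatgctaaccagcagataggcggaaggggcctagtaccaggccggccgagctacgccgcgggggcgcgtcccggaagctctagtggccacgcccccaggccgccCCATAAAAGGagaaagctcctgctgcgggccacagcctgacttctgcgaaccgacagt
Fosb, chr7:19310046-19310295, minus strand: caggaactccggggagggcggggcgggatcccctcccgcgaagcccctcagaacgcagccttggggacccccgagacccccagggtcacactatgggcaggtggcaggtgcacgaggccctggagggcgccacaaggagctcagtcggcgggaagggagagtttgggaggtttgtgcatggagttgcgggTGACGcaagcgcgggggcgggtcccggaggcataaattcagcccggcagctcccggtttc
In the Fos window TGACG stood at positions -129 and -66 from the start, in the Fosb window at -60, and the Zfp36 window held a CArG box at -58. Of the tested genes, 10963 had a promoter, and 26.3% of those windows held TGACG and 1.19% a CArG box. Among the 5 immediate-early peaks with a promoter, 3 held TGACG and 1 a CArG box. Among the 27 other immediate-early genes with one, 14 held TGACG (51.9%) and 1 a CArG box. Other motifs were searched too and are not in capitals. The NF-kappaB binding motif lay in 2 of the 5, Fos and Fosb, and in 5 of the 27 (18.5%). Of the tested genes with a promoter, 8.59% held it. TGACG is contained in the whole cAMP response element, which none of the 5 held. Bases further upstream were not searched, and the peaks Egr1, Ier2, Nfkbiz and Sik1 had no promoter at hand.

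Fos (chr12:85473890-85477273, mm10) was at 129 and 131 CPM in the D4 libraries, against 2.43 and 3.44 on D2, 4.97 and 4.96 on D6 and 4.07 and 4.15 on D8. Its D4 mean was 32.4 times that of the other days, a difference of 4.73 ± 0.09 on the log2(CPM + 1) scale (SE; adjusted p = 6.0e-12, limma). Both D4 libraries stood far above the rest, and the other days were all low. Egr1 (chr18:34859823-34864984) was at 394 and 398 CPM on D4 and between 41.5 and 54.4 CPM elsewhere, a difference of 3.03 ± 0.06 (adjusted p = 7.3e-12). It was the most abundant of these genes on D4, and the 6 other libraries lay far below.

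Fosb (chr7:19302696-19310051) behaved differently on D2. It was at 105.1 and 124 CPM on D4, 38.0 and 31.9 on D2, 2.25 and 1.79 on D6, and 1.49 and 2.15 on D8. It was thus intermediate on D2 and low later, with a difference of 4.10 ± 0.11 (adjusted p = 8.6e-11). Zfp36 (chr7:28376784-28380253) was at 84.3 and 82.7 CPM on D4 and between 18.6 and 21.7 in the 6 other libraries, a difference of 2.02 ± 0.06 (adjusted p = 3.6e-10). Ier2 (chr8:84661331-84662852) was at 72.8 and 63.9 CPM on D4 and between 21.1 and 28.2 elsewhere, a difference of 1.43 ± 0.08 (adjusted p = 3.6e-08). For both genes the other days lay close together. That the D4 libraries did not overlap them follows from the definition of a peak.

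**Figure D2:**
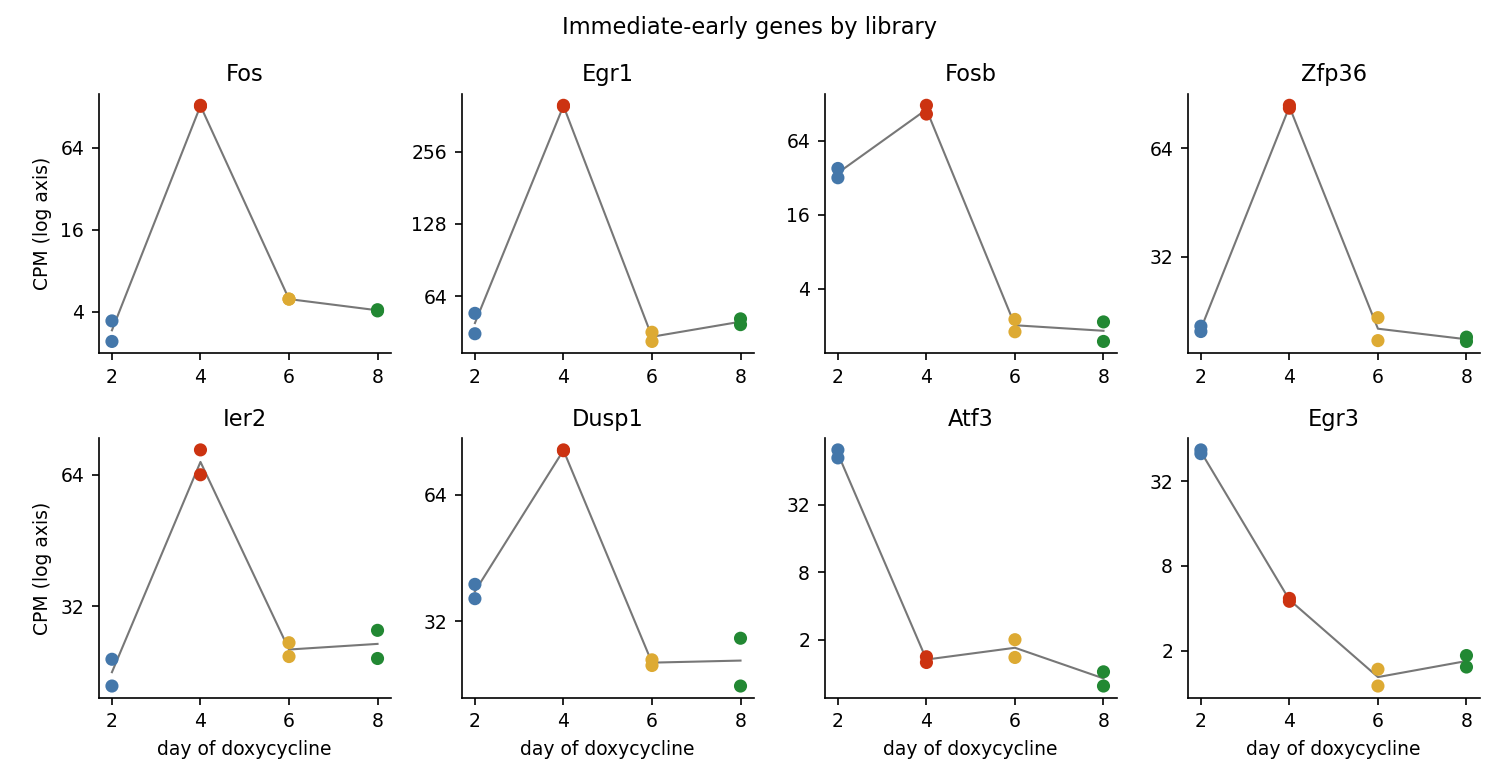
CPM (y axis, log scale, its range set for each gene) of 8 immediate-early genes against the day of doxycycline (x axis), with 1 point per library and a line through the mean of each day. Fos, Egr1, Fosb, Zfp36, Ier2 and Dusp1 are highest on D4, whereas Atf3 and Egr3 are highest on D2.

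The peak did not extend to immediate-early genes as a class. Of the 7 Fos and Jun genes, 4 were higher on D4 and 3 lower, and Fos, Fosb and Junb were peaks. Junb was at 150.4 and 145 CPM on D4, 129.6 and 118 on D2 and between 55.2 and 57.6 later, so that its difference of 0.99 ± 0.05 came mostly from D6 and D8. Jun was higher on D4 than on D6 and D8 but not than on D2, whereas Fosl1, Fosl2 and Jund, the other AP-1 subunits, were lower than the mean of the other days, by 0.28, 0.26 and 0.29. The call for Fosl1 was lost without the second D4 library, at -0.22.

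Of 34 other immediate-early genes, all of which were tested, 14 were higher on D4, 11 lower and 9 not called, with a median difference of 0.12 beside -0.02 over all tested genes. Over all tested genes, 20.2% were higher, 23.1% lower and 4.85% peaks. The 6 peaks of this list were Egr1, Zfp36, Ier2, Nfkbiz, Zfp36l1 and Sik1. Nfkbiz, a nuclear regulator of NF-kappaB target genes, was at 89.1 and 78.8 CPM on D4, 27.9 and 28.1 on D2 and between 40.0 and 48.8 later. All 11 called lower had their highest mean on D2. Atf3, a stress-induced repressor, was at 99.1 and 84.0 CPM on D2 and between 0.769 and 2.00 CPM in the other 6 libraries, where D4 did not stand apart. Egr3, a relative of Egr1, was at 53.2 and 50 CPM on D2, 4.49 and 4.71 on D4 and between 1.13 and 1.85 later. Against D2 alone the 34 genes had a median difference of -0.56. With D4 set against D2 and D6 only, 10 were higher and 14 lower.

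Some of the genes that damp MAP kinase signalling were D4 peaks. Of 19 tested phosphatases and feedback inhibitors, out of 20 listed, 11 were higher on D4, 5 lower and 7 were peaks, with a median difference of 0.26. Dusp1, a phosphatase that inactivates MAP kinases in the nucleus, was at 81.7 and 81.4 CPM on D4, 39.2 and 36.2 on D2, and between 22.4 and 29.2 later (difference 1.46 ± 0.08, adjusted p = 3.7e-08). Sprouty proteins inhibit signalling from receptor tyrosine kinases, and 3 of their genes were peaks. Spry2 was at 34.8 and 33.8 CPM on D4, 11.6 and 11.3 on D2 and between 16.9 and 19.2 later. Spry1 was at 20.3 and 21.2 CPM on D4 and between 8.14 and 13.6 elsewhere. Spry4 was at 23.1 and 24.7 CPM on D4, 4.76 and 5.43 on D2 and between 14.7 and 19.9 later, so that D6 came close to D4. Dusp7, Spred1 and Spred3 were the other peaks. Dusp4, Dusp5, Dusp8, Dusp14 and Dusp16 were lower, and all 5 were highest on D2.

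Among the gene lists, cell division had the most peaks. Of 30 genes of mitosis and the G2/M phase, all listed members, every one was higher on D4 than the mean of the other days, and 24 were peaks. Their median difference was 0.49, with medians of 0.42 against D2, 0.40 against D6 and 0.72 against D8, where the medians over all tested genes were 0.11, -0.07 and -0.07. The summed level of the list was 1525 and 1725 CPM on D4, 1162 and 1155 on D2, 1214 and 1323 on D6, and 918 and 1050.2 on D8. D8 was thus the lowest day and D4 the highest, and the 2 D4 libraries differed from each other by about as much as the lower of them exceeded the highest D6 library.

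Foxm1, the transcription factor that drives the mitotic genes, was at 47.8 and 59.0 CPM on D4, 37.6 and 34.4 on D2, 32.0 and 36.4 on D6, and 21.2 and 24.2 on D8, a difference of 0.79 ± 0.08 (adjusted p = 1.0e-05). Aurkb, the kinase of the chromosomal passenger complex, was at 24.3 and 26.6 CPM on D4 and between 11.1 and 16.7 elsewhere (0.78 ± 0.07, adjusted p = 3.0e-06). The spindle checkpoint genes Bub1b and Ttk were likewise highest on D4. Bub1b was at 34.2 and 38.5 CPM on D4 and between 17.8 and 25.6 elsewhere (0.71 ± 0.08), and Ttk at 13.2 and 13.6 CPM on D4 and between 6.88 and 9.31 elsewhere (0.69 ± 0.07). Both were peaks, which by definition excludes overlap of the D4 libraries with another day. Mki67, the proliferation marker, was no peak: it was at 186 and 248.9 CPM on D4 and 187 and 202 on D6, so that these days overlapped.

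Many mitotic promoters are known to be controlled through CCAAT boxes, bound by NF-Y, and the cell cycle homology region (CHR), with the letters TTTGAA. The upstream windows of Bub1b and Ttk are given because these were the mitotic peaks furthest from the nearest other day among those with a promoter at hand. Capitals mark CCAAT, or ATTGG where the box lies on the other strand.
Bub1b, chr2:118597961-118598210, plus strand: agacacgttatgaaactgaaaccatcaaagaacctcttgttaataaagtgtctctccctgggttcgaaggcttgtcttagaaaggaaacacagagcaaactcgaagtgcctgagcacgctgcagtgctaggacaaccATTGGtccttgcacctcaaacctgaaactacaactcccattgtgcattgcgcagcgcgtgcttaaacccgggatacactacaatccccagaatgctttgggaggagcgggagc
Ttk, chr9:83834439-83834688, plus strand: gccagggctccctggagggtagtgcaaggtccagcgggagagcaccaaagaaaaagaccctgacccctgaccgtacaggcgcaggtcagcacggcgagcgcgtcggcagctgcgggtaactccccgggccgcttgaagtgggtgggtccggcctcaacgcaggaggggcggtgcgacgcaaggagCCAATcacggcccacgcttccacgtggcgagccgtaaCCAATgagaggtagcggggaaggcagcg
Bub1b held a CCAAT box at -113 and Ttk held a pair, at -65 and -28. Among the 19 mitotic peaks with a promoter, 17 held CCAAT in these 250 bases (89.5%), beside 36.6% of the tested genes with a promoter. TTTGAA was found in 7 (36.8%, beside 10.9%). With the 50 bases after the start included, TTTGAA was found in 15 of 19 (78.9%, beside 12.3%). Of the 6 mitotic genes that were no peak, 3 held CCAAT, and 4 held TTTGAA in the longer window. Both motifs and the list were chosen with the lists' results known, and a match is a description of the letters only.

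DNA replication genes were mostly higher on D4 too. Of 32, 29 were higher on D4, none was called lower and 12 were peaks, with a median difference of 0.44. Of the replicative helicase genes, Mcm2, Mcm3, Mcm4, Mcm5 and Mcm6 were peaks, whereas Mcm7 was not, at 63.0 and 65.45 CPM on D4 and 65.45 and 67.2 on D6. Mcm5 was at 39.5 and 41.5 CPM on D4, 27.0 and 26.6 on D2, 29.3 and 33.0 on D6 and 19.8 and 23.5 on D8 (0.61 ± 0.07, adjusted p = 2.3e-05). Ccne1, the cyclin of entry into S phase, was at 49.2 and 48.7 CPM on D4 and between 29.8 and 43.4 elsewhere. Rrm2, which makes deoxynucleotides, was as high on D2 as on D4 and lower later, at 104 and 111 CPM on D4, 102 and 99.4 on D2 and between 44.1 and 73.2 afterwards. How many of these genes count as peaks depended on single libraries: without the first D6 library 14 mitotic and 3 replication genes were peaks, and without the second D4 library 12 and 7. With no filter on low values 11 mitotic genes were peaks, and after quantile normalization 14. That all mitotic genes were higher was less sensitive, with 28 to 30 of 30 called in every alternative, and 23 to 29 of 32 for replication.

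**Figure D3:**
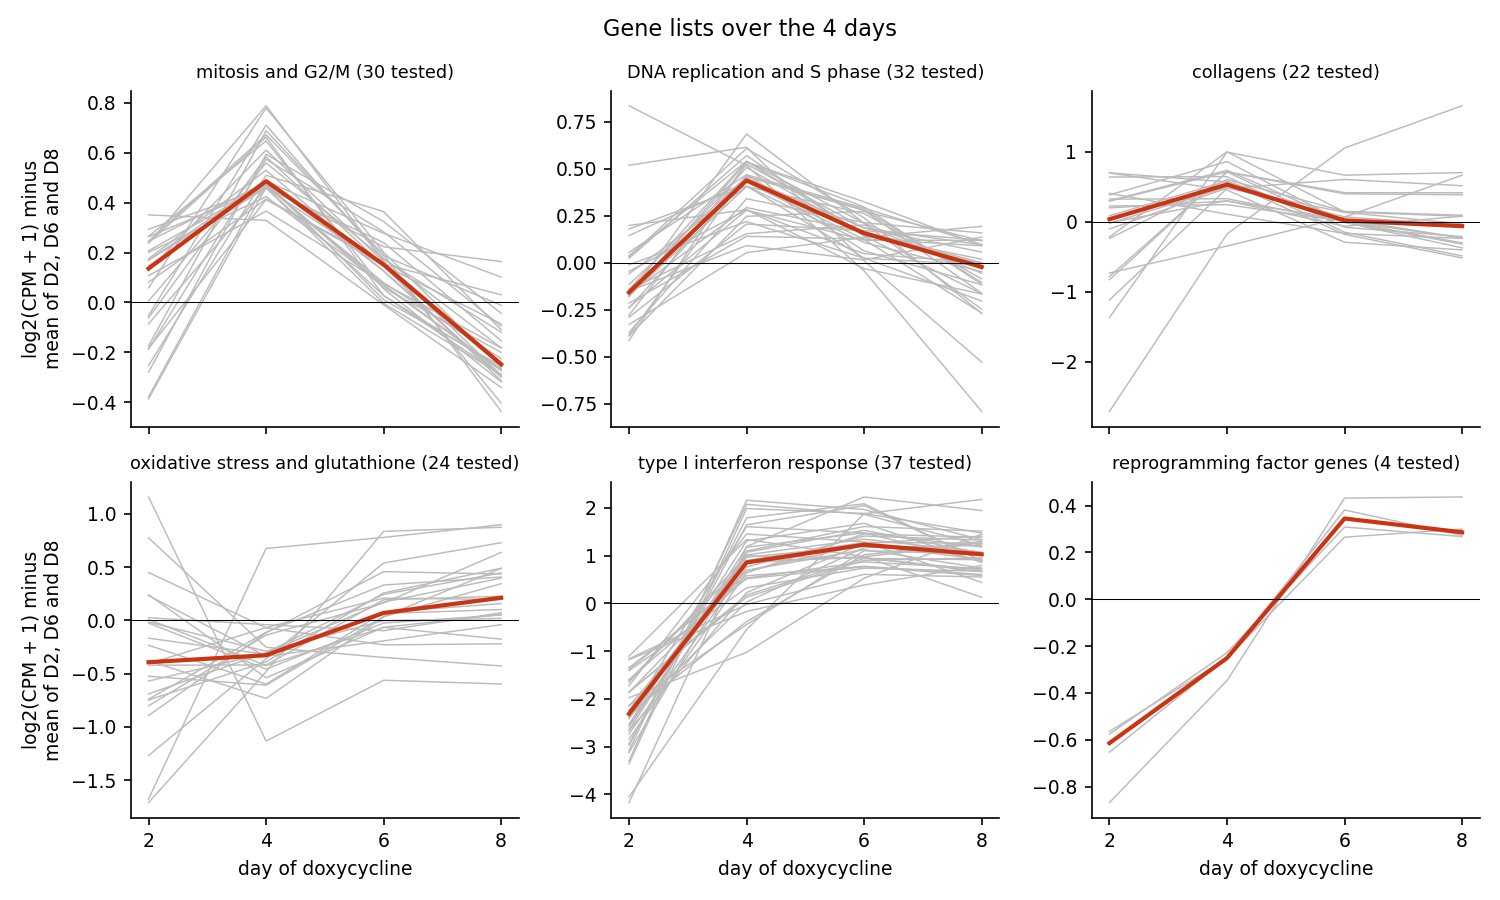
Level of each tested member of 6 gene lists (grey lines) and the list's median (red line) on each day, as log2(CPM + 1) minus the gene's own mean over D2, D6 and D8 (y axis, its range set for each list), against the day of doxycycline (x axis). The mitosis, replication and collagen medians peak on D4, at 0.49, 0.44 and 0.53. The medians of the interferon and reprogramming factor lists run from D2 to a later plateau.

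Among matrix genes, the collagens held the most D4 peaks. Of 22 collagen genes, 19 were higher on D4, 1 lower and 12 were peaks, with a median difference of 0.53. Summed, they made 51359 and 55620 CPM on D4 and between 33566 and 41076 in the other libraries, which did not overlap. Col5a3, a minor chain of type V collagen, was at 289 and 293 CPM on D4, 124 and 125 on D2, 161 and 159 on D6, and 152 and 155 on D8 (1.00 ± 0.04, adjusted p = 1.7e-09). Col3a1, a main collagen of loose connective tissue, was at 10519 and 10547 CPM on D4 and 2063 and 2031 on D2, and most of that rise was kept later, between 7919 and 9329.9 CPM. Col12a1, which sits on the surface of collagen fibrils, was at 1822 and 1944 CPM on D4, 1327 and 1380.0 on D2 and between 733 and 1102 later. Col1a1, whose locus also carries the inducible cassette in this strain, was at 14714 and 18029 CPM on D4 and between 10848 and 13644 elsewhere (0.48 ± 0.09). Its call was lost when no filter on low values was used. Col15a1, of basement membranes, was the member called lower, and it was highest on D8.

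Of 17 tested matrix metalloproteinases and their inhibitors, 12 were higher on D4, 2 lower and 6 were peaks. Among all tested genes these shares were 20.2%, 23.1% and 4.85%. Mmp3, stromelysin, was among the 5 genes with the largest positive difference of all, at 446 and 381 CPM on D4, 7.81 and 12.2 on D2, and between 245 and 269 later (2.20 ± 0.11, adjusted p = 2.0e-08). D2 was low and the later days lay well above it and below both D4 libraries. Mmp10, Mmp13, Mmp14 and Mmp19 were peaks as well, together with the inhibitor Timp2, whereas Timp1 and Timp3 were highest on D2 and were called lower on D4. Without the second D4 library 8 of the 17 were called higher. Small leucine-rich proteoglycans, which bind collagen fibrils, were mixed: of 12, 6 were higher, 2 lower and 2, Podn and Aspn, were peaks, with a median of 0.10, and of -0.46 against D8.

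Fibroblast markers as a whole did not share the peak to the same extent: of 28, 15 were higher, 4 lower and 6 were peaks, with a median of 0.20. Without either one of the D2 libraries 2 were called lower. Fap, a membrane protease of activated fibroblasts, was at 31.2 and 31.3 CPM on D4, 6.15 and 4.83 on D2 and between 20.6 and 25.1 later (1.06 ± 0.09, adjusted p = 1.6e-06). Thy1 was not called, at 422 and 365 CPM on D4. Of 22 genes of TGF-beta signalling, 11 were higher, 4 lower and 3 were peaks, beside 20.2%, 23.1% and 4.85% of all tested genes. The ligand Tgfb3 was at 226 and 251 CPM on D4, 190.5 and 196 on D2 and between 109 and 129 later (0.76 ± 0.04).

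Of 15 insulin-like growth factor axis genes, 7 were higher, 4 lower and 4 peaks, beside 20.2%, 23.1% and 4.85% of all tested genes. Without the first D4 library 2 were called lower. The ligand Igf2 was at 1496 and 1709 CPM on D4, 712 and 713 on D2, and between 968 and 1014 later (0.84 ± 0.05, adjusted p = 9.6e-08). Its clearance receptor Igf2r was at 814 and 879 CPM on D4 and between 316 and 556 elsewhere (0.95 ± 0.05, adjusted p = 7.9e-08). Both were peaks, as were Igfbp3, a carrier protein of the ligands, and Irs1, an adaptor of the receptor.

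Of 23 tested chemokine and cytokine genes, 13 were higher on D4, 2 lower and 4 were peaks. Among all tested genes these shares were 20.2%, 23.1% and 4.85%. The monocyte attractants Ccl2 and Ccl7 and the neutrophil attractant Cxcl1 were peaks. Ccl2 was at 115 and 113 CPM on D4 and between 56.5 and 74.8 elsewhere (0.78 ± 0.06), and Ccl7 at 163 and 168 CPM and between 79.6 and 103 elsewhere (0.88 ± 0.04). Cxcl1 was at 86.2 and 79.8 CPM on D4, 3.92 and 5.78 on D2 and between 47.0 and 61.5 later. Cxcl10, an interferon-induced chemokine, had one of the largest differences (2.38 ± 0.33) but was no peak, at 55.1 and 66.0 CPM on D4, 44.7 and 27.8 on D6 and 7.50 and 28.9 on D8. Most of its difference came from D2. Of 16 tested macrophage and blood cell markers, 2 were higher on D4 and 2 lower, and 1, Itgam, was a trough, with a median difference of 0.175. Whether such cells had a part in the chemokine levels was not tested.

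The interferon response had a large difference and no peak. Of its 37 genes, 27 were higher on D4, 2 lower and none was a peak, with a median difference of 0.86. Against D2 the median was 3.10, but against D6 it was -0.40 and against D8 -0.20. Ifit3, a typical target, was at 113 and 103 CPM on D4, 1.76 and 1.25 on D2, 86.9 and 102 on D6, and 50.1 and 73.0 on D8. The D6 libraries differed for others of the list: Isg15, a ubiquitin-like protein, was at 43.4 and 32.0 CPM on D4, 1.86 and 2.24 on D2, 35.2 and 75.7 on D6 and 34.2 and 39.9 on D8. By its medians the list on D4 lay nearer to the later days than to D2, whereas Ifit3 was lower on D8 than on D4.

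Among the peaks outside these lists, Tmem26, a membrane protein, was at 29.9 and 25.1 CPM on D4 and between 4.86 and 12.6 elsewhere (1.76 ± 0.11, adjusted p = 2.0e-07). Adamts14, which processes procollagens, was at 50.03 and 53.4 CPM on D4, 12.3 and 11.8 on D2, and between 24.2 and 30.5 later (1.29 ± 0.06). Sertad4 was at 139 and 144 CPM on D4 and between 48.9 and 79.0 elsewhere. Cemip2, a hyaluronidase of the cell surface, was at 58.1 and 55.5 CPM on D4 and between 23.9 and 31.9 elsewhere. Adcy4, an adenylate cyclase, and Gldn were lower in level, at 10.7 and 11.6 CPM and at 12.03 and 9.68 CPM on D4. All 6 were peaks, for which both D4 libraries exceed the other 6 by definition.

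**Figure D4:**
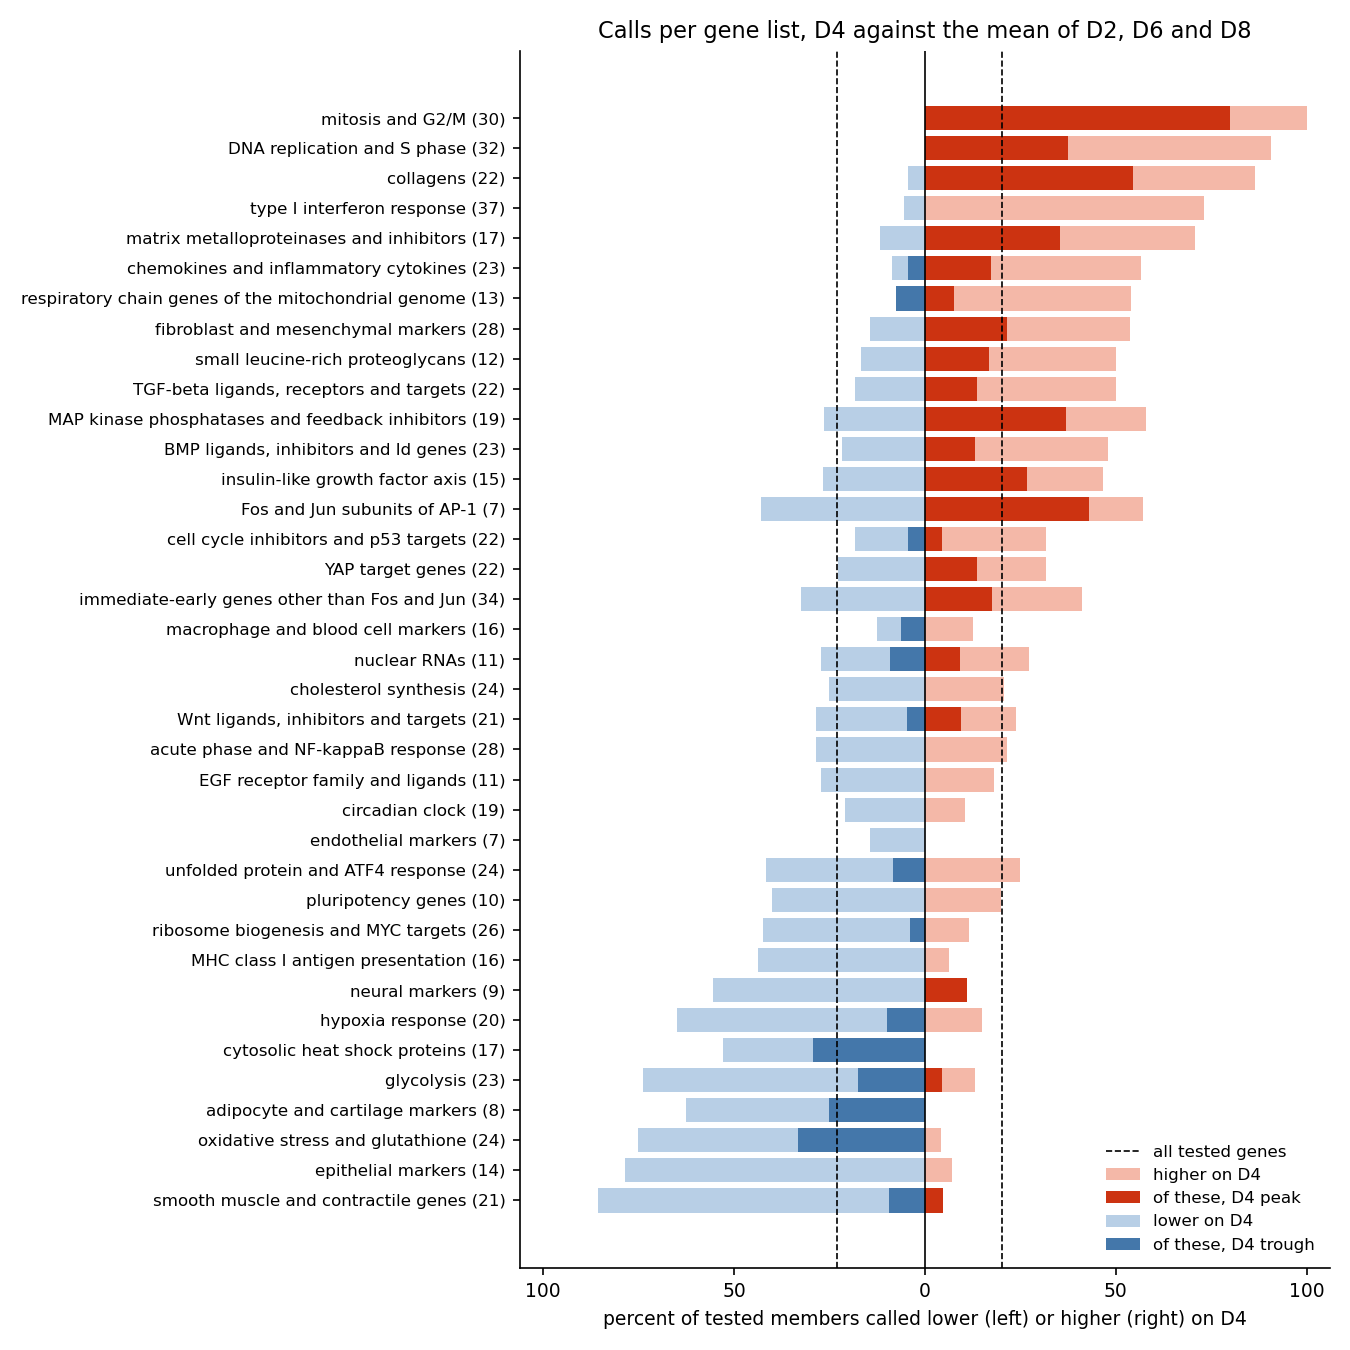
Percent of the tested members of each gene list called higher (right) or lower (left) on D4 than the mean of D2, D6 and D8, with D4 peaks and troughs in dark colour, for lists with 7 or more tested members (number in brackets). Dashed lines mark the 20.2% and 23.1% of all tested genes. Mitosis, replication and collagens lie at the top, and contractile, epithelial and oxidative stress genes at the bottom.

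Among the gene lists, the oxidative stress response had the most troughs. Of 24, 18 were lower on D4, 1 higher and 8 were troughs, with a median difference of -0.33. The median was -0.07 against D2 and -0.46 and -0.53 against D6 and D8. The troughs were Hmox1, Gclc, Gclm, Gpx1, Gpx4, Sod1, Mt1 and Ftl1. Hmox1, which degrades haem, was at 62.3 and 60.3 CPM on D4, 305 and 303 on D2, 93.0 and 90.1 on D6, and 91.5 and 87.1 on D8 (-1.13 ± 0.04, adjusted p = 1.7e-09). D2 was by far the highest day, and the later days lay between. Gclm, a subunit of the enzyme that starts glutathione synthesis, was at 54.1 and 52.7 CPM on D4 and between 70.2 and 76.4 in the other 6 libraries (-0.46 ± 0.04). Gpx4, which reduces lipid peroxides, was at 138 and 122 CPM on D4, 169 and 166 on D2 and between 199 and 234 later (-0.60 ± 0.06). The metal-binding Mt1 was at 115 and 113 CPM on D4 and between 143 and 248 elsewhere. Ftl1, the ferritin light chain, was at 479.5 and 434 CPM on D4 and between 546 and 797 elsewhere; its genomic copies may share its reads. Between 6 and 9 of the list were troughs in every alternative.

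Of 17 cytosolic heat shock protein genes, 9 were lower on D4, none was called higher and 5 were troughs. The troughs were Hspa8, Hsp90aa1, Hspb1, Hspb8 and Cryab. Hspb1, a small chaperone, was at 29.5 and 25.6 CPM on D4, 99.3 and 92.0 on D2, and between 44.1 and 49.4 later (-1.09 ± 0.06, adjusted p = 9.2e-08). Cryab, the lens and muscle chaperone of the same family, was at 112 CPM in both D4 libraries, 288 and 289.5 on D2 and between 133 and 159.9 later (-0.71 ± 0.04). For both, D2 was high and D4 lay below the later days.

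Of 23 glycolysis genes, 17 were lower on D4, 3 higher, 4 were troughs and 1 a peak, with a median of -0.50. That median came from D2: against D2 it was -1.37, and against D6 and D8 0.01 and -0.00. Pkm, pyruvate kinase, was at 668 and 645 CPM on D4, 1723 and 1698 on D2, and between 664 and 739 later, which overlapped D4. The troughs Aldoa, Tpi1, Gpi1 and Aldoc went below the later days too, and without the second D6 library 2 troughs were called. Gpi1, of the second step of the pathway, was at 542 and 520.1 CPM on D4 and between 694 and 776 in the other 6 libraries (-0.49 ± 0.04, adjusted p = 2.3e-06). Hypoxia-response genes behaved likewise, with 13 of 20 lower, 3 higher and 2 troughs. Ndrg1, of that list, was at 14.6 and 13.8 CPM on D4, 64.0 and 66.8 on D2, 25.9 and 26.0 on D6, and 35.9 and 30.8 on D8 (-1.38 ± 0.06, adjusted p = 1.1e-08).

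Of 21 tested contractile genes, 18 were lower on D4, with 1 higher and 2 troughs. The median was -1.80 against D2, and 0.01 and -0.14 against D6 and D8. Acta2, smooth muscle actin, was at 517 and 507 CPM on D4, 2448 and 2339.9 on D2, 534 and 625 on D6, and 752 and 628 on D8. The skeletal actin Acta1 was a trough, at 10.8 and 10.4 CPM on D4, 60.02 and 56.2 on D2 and between 16.7 and 23.6 later (-1.32 ± 0.10). Smtn, smoothelin, was the exception, a peak at 55.9 and 61.2 CPM on D4 and between 33.7 and 43.8 elsewhere.

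Serpinb9b and Slc6a12 were the 2 troughs at least 2-fold below every other day. Slc6a12, a transporter of betaine and GABA named after its values were seen, was at 1.40 and 1.00 CPM on D4 and between 3.22 and 5.204 elsewhere. Serpinb9b, a member of a family of serine protease inhibitors, was at 6.69 and 5.23 CPM on D4, 47.1 and 44.0 on D2, 15.4 and 15.9 on D6, and 24.5 and 21.3 on D8 (-1.93 ± 0.08, adjusted p = 8.1e-09). Neat1, the nuclear RNA that builds paraspeckles, was at 233 and 213 CPM on D4, 730.0 and 736 on D2, and between 366 and 424 later (-1.11 ± 0.04, adjusted p = 3.5e-09). Other troughs were flat on the remaining days. Mgll, the lipase of monoacylglycerols, was at 21.1 and 16.6 CPM on D4 and between 34.8 and 39.8 elsewhere, and Klhl21, an adaptor of a ubiquitin ligase needed in cytokinesis, at 28.6 and 26.4 CPM and between 42.3 and 48.3. Cystm1, Dancr, Lims2, Tubb4a, Ildr2, Itga3 and Retreg1 were between 1.88 and 7.24 CPM on D4, and Arhgef28 at 63.3 and 63.0 CPM. Each of these was a trough, which by definition is lower in both D4 libraries than in the other 6.

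Peaks and troughs also differed in properties that no test used. Protein-coding genes made up 97.4% of the peaks and 80.9% of the troughs, beside 88.1% of all tested genes. Pseudogenes, whose reads can belong to their parent genes, were 68 of the troughs (13.5%) and 2 of the peaks (0.268%), beside 8.3% of all tested genes. The median longest transcript was 4226 bases for peaks, 2619 for troughs and 3154 for all tested genes, while GC content hardly differed (50.5%, 50.5% and 49.7%). Whether transcript length had a part in these calls was not tested.

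None of the 4 reprogramming factor genes was a peak or a trough. Pou5f1 (Oct4), Sox2, Klf4 and Myc were each higher on D4 than on D2 and lower than on D6 and D8. Pou5f1 was at 156 and 170.0 CPM on D4, 115 and 112 on D2, 276 and 285 on D6 and 277 and 286 on D8. Myc was at 478 and 500.2 CPM on D4, 404 and 383 on D2 and between 699 and 722 later. The 4 differences from the mean of the other days lay between -0.35 and -0.23, and each of the 4 genes was intermediate without overlap. With D4 set against D2 and D6 only, Klf4 (-0.09) and Myc (-0.10) were no longer called. Of 14 tested epithelial markers, 11 were lower on D4, 1 was higher and none was a peak or a trough. Their median was 0.02 against D2, and -0.45 and -0.95 against D6 and D8, so these calls came mostly from the later days. Without the second D4 library 7 were called lower, and with no filter on low values 6. Col17a1 and Klk1, which had 2 of the 5 largest negative differences, were highest on D8. Col17a1, a hemidesmosome collagen, was at 1.25 and 1.00 CPM on D4 and 38.1 and 35.8 on D8, and Klk1 at 0.233 and 0.292 CPM on D4 and 10.3 and 13.2 on D8.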

How the data were processed

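Total RNA of 8 libraries was sequenced on BGISEQ-500. Per the submitters' processing notes, reads were trimmed with Trimmomatic 0.39, counted with featureCounts and referred to mm10; which aligner and strand setting served is not given in the sources used here. Although deposited as a table titled TPM, the values are the authors' CPM: every column sums to 1000000 and shows no division by gene length. Depth was read from the step of 1 read; since many values were not whole reads, no count test was used. Genes reaching 1 CPM in 2 or more libraries were compared on log2(CPM + 1) with limma 3.58.1 (R 4.3.3; 1 coefficient per day, 4 residual degrees of freedom, trended variance), with D4 minus the mean of the 3 other days and minus each of them. The Benjamini-Hochberg adjustment covered all 15358 genes, with 0.05 as threshold. Differences understate changes of genes of low level.

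Members and gene lists were chosen with earlier results of these data known. Named genes were the 15 peaks and 15 troughs furthest from the nearest other day (at least 5 CPM), the 5 largest differences each way, up to 5 called members per list, all members of short lists, and some fixed genes; 1 gene that the rule selects is not reported here. Genes given as the full set of called members of a list fall outside this rule, and Ccl2, Ccne1, Egr3, Ftl1, Gclm, Gpi1, Isg15, Mcm7, Mki67, Pkm, Slc6a12 and Smtn were chosen after their values were seen. Gene positions are from GENCODE M21 (mm10) and promoters from RefSeq (GRCm38.p6). Alternatives were another pseudocount, no filter, median-of-ratios and quantile scaling, a replicate block, untrended variance, neighbouring days only and each library left out.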

Additional observations from a re-analysis of the deposited data

How the results depend on the processing

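The counts of genes higher and lower on D4, of those at least 2-fold apart, and of peaks and troughs stayed within 1.5 times under most alternatives. With a pseudocount of 0.1, 124 genes were at least 2-fold higher and 250 at least 2-fold lower. With no filter on low values there were 301 troughs. With D4 set against D2 and D6 only, 170 genes were at least 2-fold higher, and the sign turned for Cfb (0.385), Epyc (0.0276), Lbp (0.15), Lcn2 (0.115), Slc7a5 (-0.084) and Tek (0.0342). The cause was not tested. Leaving out 1 library at a time gave 2159 to 3065 genes higher, 2082 to 3474 lower, 66 to 78 at least 2-fold higher, 83 to 115 at least 2-fold lower, 500 to 742 peaks and 271 to 733 troughs. The lowest counts of genes lower and of troughs came without the second D4 library. The share of called genes that were higher was 46.6%, and 51.4% with median-of-ratios scaling, 49.3% after quantile normalization and 56.1% against the neighbouring days. Of 207 named genes tested, 159 kept their call in every alternative.

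Whether the replicate numbers pair the libraries across days was not settled. Correlations of the first libraries' deviations from their day means ran from -0.102, between D4 and D6, to 0.207, between D4 and D8. With the replicate block, 3172 genes were higher, 3695 lower, 68 and 91 at least 2-fold apart, 793 were peaks and 560 troughs.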

Other observations

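Outside the lists, some gene families stood out when the peaks and troughs were read through, so they were chosen after their values were seen and carry no test of their own. Of 12 tested Hedgehog pathway genes, 9 were higher on D4, none was called lower and 6 were peaks (20.2% and 4.85% of all tested genes). Gas1, a co-receptor of the ligand, was at 248 and 249.5 CPM on D4, 53.05 and 58.6 on D2, and between 184 and 197 later. Gli2, a transcription factor of the pathway, was at 40.8 and 43.5 CPM on D4, 17.4 and 16.1 on D2, and between 25.3 and 29.4 later. Ptch1, its usual target gene, was not called, at 15.7 and 20.1 CPM on D4 and between 19.2 and 22.7 elsewhere.

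Some families were mostly lower on D4. Of all tested genes, 23.1% were lower and 3.28% were troughs. Of 83 cytosolic ribosomal protein genes, 62 were lower on D4, none was called higher and 19 were troughs, with a median difference of -0.21. These 83 genes took 2.69% and 2.31% of reads in the D4 libraries and between 2.74% and 3.12% in the others, so the first D4 library lay close to D2. Of 19 vacuolar ATPase subunits and accessory proteins, 16 were lower and 6 were troughs. Their median was -0.38 against D2, and -0.17 and -0.21 against D6 and D8. Histone cluster genes were lower in 29 of 42 cases, higher in 2, with 8 troughs. Many of the 42 were low on D4, such as Hist1h4h at 0.598 and 0.726 CPM, whereas Hist1h1c was at 60.7 and 51.9 CPM. The histone median was -0.54 against D2, and -0.23 and -0.25 against D6 and D8, so D2 weighed most in both families. Many genes of these families have near-identical copies that may share reads.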
